A study of Mus musculus with 2 samples.

Results

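CTCF binding was examined around 10 genes of squamous epithelium in the stomach of newborn mice: the regulators Trp63 and Ovol1, the cornified envelope and desmosomal plaque genes Ppl, Evpl, Dsp and Pkp1, and the desmosomal cadherins Dsg3, Dsg2, Dsc3 and Dsc2. The genes were chosen by name, as 10 of the 21938 protein-coding genes of GENCODE M21. Of the 74283 optimal CTCF peaks on mm10 chromosomes, 58 had their summit within 50 kb of a transcription start site (TSS) of at least 1 of them. Chromatin immunoprecipitation with an antibody to CTCF, followed by sequencing, was done on stomach of strain B6NCrl at postnatal day 0, with sex not collected. There was 1 group of 2 samples, numbered replicates 1 and 2, and the labels give both the same donor and the same tissue sample, so that the spread between them may be technical. The whole organ was used, which holds squamous and glandular epithelium, muscle, nerve, vessels and blood. No expression was measured, so squamous cells could not be checked by their markers. A site bound in few cells and a site weakly bound in many cells cannot be told apart.

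CTCF is a zinc finger protein that binds an asymmetric DNA motif, marks insulators and, together with cohesin, anchors chromatin loops. Loop anchors are usually a pair of CTCF motifs whose strands face each other. In rodents the forestomach is lined by a stratified squamous epithelium like that of the skin. Its basal cells depend on the transcription factor p63, its cells are joined by desmosomes, and its upper layers build a cornified envelope. In a desmosome, cadherins of the desmoglein and desmocollin families bridge the gap between cells, plakophilins and plakoglobin form the plaque beneath them, and desmoplakin ties the plaque to keratin filaments.

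A peak's signal is the value that the authors' peak caller gave it, and it is used here only within a list. The optimal list was made by the authors from both replicates, and replicate signals come from each replicate's own relaxed list. Peaks were counted around every TSS of the 10 genes. In 3 of the 10 genes (Ppl, Dsc3 and Dsc2) a TSS had an optimal summit within 1 kb, against 45.6% of all protein-coding genes. Within 10 kb the count was 7 of 10, against 72.3%, and the genes without a peak were Trp63, Evpl and Dsg3. Within 50 kb it was 9 of 10, against 88.0%, and Trp63 alone had none. The 10 and 50 kb counts are near the background, and the 1 kb count was 4 of 10 in the authors' conservative list, against 43.7%, so no count is read as a trait of these genes. The distance from a TSS to its nearest optimal peak had a median of 5071 bp over the 10 genes, from 97 bp at Dsc3 to 143730 bp at Trp63, against a median of 1556 bp over coding genes on chromosomes with a peak. The number of peaks within 50 kb ranged from 0 to 11 with a median of 5.5, against a median of 6 over coding genes.

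**Figure D1:**
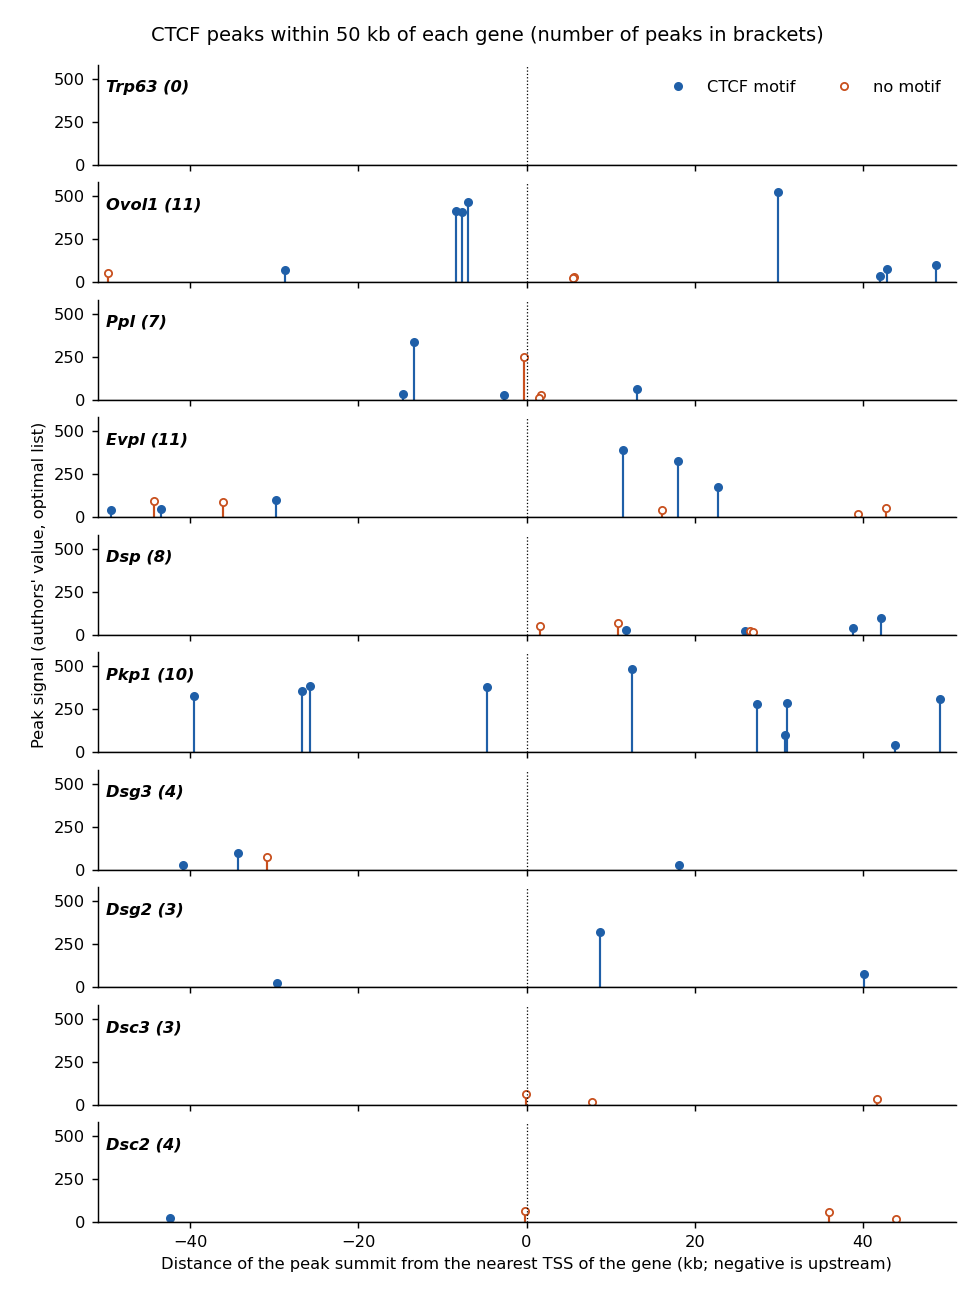
Optimal CTCF peaks within 50 kb of a TSS of each gene, with the signed distance from the nearest TSS in kb on the x axis and the authors' signal on the y axis. Filled blue points have a CTCF motif near the summit and open orange points have none. Trp63 has no peak, the 10 peaks of Pkp1 all have the motif, and those at the starts of Ppl, Dsc3 and Dsc2 have none.

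Trp63 encodes p63, the master regulator of stratified epithelia, and had no optimal peak in its 208340 bp gene body (chromosome 16, 25683763 to 25892102, plus strand). It has 8 annotated transcripts, of which the long forms start at or within 2 bp of 25683763 and the shorter forms, known as delta N and dominant in basal squamous cells, start at 25801916. Both starts lay in the same peak-free stretch of 522328 bp. An interval at least as long surrounded the start of 6.99% of the 21653 coding genes with a peak on either side, for which the median interval was 29047 bp. Trp63 was the only coding gene that touched the stretch.

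The stretch around Trp63 ended in weak peaks, with strong ones behind them. On the left the first peak (25423170 to 25423465) lay 260445 bp before the long-form start and had a signal of 31.4, with 12.1 in replicate 1 and 14.9 in replicate 2. On the right the first peak (25945498 to 25945793) lay 143730 bp past the delta N start and had a signal of 41.8, with 24.0 in replicate 1 and 18.2 in replicate 2. Neither had a CTCF motif. The nearest peaks in the upper 50% of the optimal list by signal lay 306877 bp to the left (signal 407) and 150280 bp past the delta N start (signal 222), and both had the motif on the minus strand. Peaks with signals of 453 and 431 followed on the right, 280288 and 283755 bp past the long-form start. Strong CTCF sites were thus present on both sides of the gene, at a distance.

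Within 50 kb of a Trp63 start, 16 peaks stood in the pooled relaxed list, which holds 300000 peaks that the authors kept before the replicates were compared, and not in the optimal list. Their signals ran from 5.14 to 24.1, and 3 of the 16 had a partner in both replicate lists. The strongest lay in an intron 43610 bp before the delta N start, with a signal of 24.1 and replicate signals of 17.7 and 5.36. That signal, rank 68872 in the pooled relaxed list, was above those of some optimal peaks, such as 9.27 near Ppl and 21.1 near Ovol1. The other shared ones lay 9370 bp before that start (signal 16.8, replicates 5.50 and 10.1) and 23322 bp before it (signal 10.01, replicates 5.49 and 3.63). Neither the order nor the size of these signals was the same in the replicates, and none of the 3 had the CTCF motif. The one nearest a start was 972 bp past it, with a signal of 6.52, and was found in replicate 1 only. Over the whole stretch there were 43 relaxed peaks, or 82.3 per Mb, against 113 per Mb over all chromosomes. These densities are not alike, because the stretch holds no optimal peak by definition and the value for all chromosomes includes relaxed peaks that are also optimal. Of the 299926 pooled relaxed peaks on chromosomes, 224741 lay more than 300 bp from any optimal peak. The lower density is therefore not read as a lack of weak peaks.

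The sequence around the Trp63 starts was poor in CpG dinucleotides, with 8 at the long-form start and 10 at the delta N start in the 500 bp on either side. The median over coding gene starts was 41. Coding genes with 10 or fewer CpG there had an optimal peak within 10 kb in 31.1% of cases and within 50 kb in 59.3%, against 84.1% and 96.3% of the other coding genes. This split was chosen after the values were seen, and its part in the lack of a peak was not tested. Dsg3, which also lacked a peak within 10 kb, had 6 and 7 CpG at its pair of starts. Evpl, the other gene without one, had 40.

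**Figure D2:**
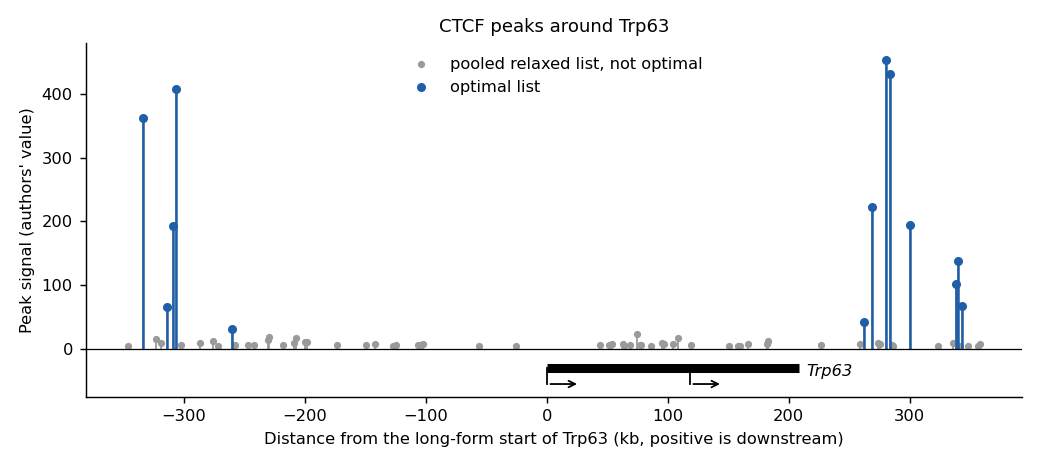
CTCF peaks around Trp63, with distance from the long-form start in kb on the x axis and the authors' signal on the y axis. The black bar is the gene, the bent arrows are its long-form and delta N starts, blue points are optimal peaks and grey points are pooled relaxed peaks that are not optimal. No optimal peak lies in the 522328 bp around both starts, and the grey peaks there do not exceed a signal of 24.1.

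Ovol1, a zinc finger repressor that acts in epithelial differentiation, had the strongest single peak near any of the 10 genes (chromosome 19, 5549136 to 5560646, minus strand). There were 11 optimal peaks within 50 kb, of which 8 had the motif, and 5 lay within 10 kb. The strongest (5529270 to 5529719) had a signal of 526, rank 332 of 74283, with 314 in replicate 1 and 212 in replicate 2. It lay between genes, 29916 bp downstream of the nearer Ovol1 start. A trio of strong peaks lay upstream, at the start of Ap5b1, an adaptor complex subunit. They stood 6997, 7725 and 8336 bp upstream of Ovol1 and had signals of 465, 407 and 416. In replicate 1 they had 283, 250 and 223, and in replicate 2 they had 191, 160 and 195. Among the peaks of a replicate these 4 ranked from 123 to 5951 in replicate 1 and from 1487 to 8357 in replicate 2.

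The motifs beside Ovol1 faced each other across the gene. The downstream site lay on the plus strand and all sites of the upstream trio lay on the minus strand. The intragenic peaks, 5504 and 5704 bp downstream of a start, had signals of 21.1 and 27.9 and no motif. At the starts themselves there was no optimal peak within 1 kb, and 4 relaxed peaks had signals of 4.99 to 7.74, none of them in both replicates. The sequences of the downstream site and of the upstream sites outside untranslated exons are shown because their letters and strands carry this arrangement, with the matched 19 bases in capitals and each read on the strand of the motif.
Ovol1 downstream, chr19:5529499-5529539, plus strand: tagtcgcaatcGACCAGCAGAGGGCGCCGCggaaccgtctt
Ovol1 upstream, chr19:5567622-5567662, minus strand: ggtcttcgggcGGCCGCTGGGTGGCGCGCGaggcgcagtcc
Ovol1 upstream, chr19:5568968-5569008, minus strand: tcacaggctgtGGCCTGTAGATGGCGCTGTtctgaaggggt

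Evpl encodes envoplakin, a plakin of the cornified envelope, and had 11 optimal peaks within 50 kb but none within 10 kb (chromosome 11, 116220559 to 116238077, minus strand). The nearest (116226504 to 116226794) lay in its own intron, 11438 bp from the start, and was the strongest of the 11. It had a signal of 388, with 221 in replicate 1 and 169 in replicate 2. The next lay in an exon of the pseudogene Cdk3-ps, 480 bp past the last base of Evpl, with a signal of 324 and replicate signals of 174 and 150. Another strong site lay near Ten1, a telomere protein gene, with a signal of 173 and replicate signals of 105 and 68.4. The 3 sites stood toward and past the end of Evpl, and all had the motif. A peak among them, in a coding exon of Evpl, was weaker, with a signal of 43.7 and replicate signals of 29.2 and 11.1, and had no motif. At the start there was no optimal peak within 1 kb, and 1 relaxed peak had a signal of 6.11, found in replicate 2 only. The intronic site matched all 13 defined letters of the consensus NNCCACNAGGGGGCGCNNN, built from peaks of chromosome 2, and the other sites matched fewer.
Evpl intron, chr11:116226598-116226638, plus strand: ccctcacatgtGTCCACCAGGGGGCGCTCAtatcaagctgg
Evpl end, chr11:116220064-116220104, minus strand: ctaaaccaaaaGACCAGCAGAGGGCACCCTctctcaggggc
Near Ten1, chr11:116215348-116215388, plus strand: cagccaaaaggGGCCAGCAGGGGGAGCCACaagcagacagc

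Ppl encodes periplakin, the partner of envoplakin in the cornified envelope, and differed from Evpl in having a strong peak at its start (chromosome 16, 5086291 to 5132421, minus strand). The peak (5132595 to 5132844) had its summit 301 bp upstream, with a signal of 248 and replicate signals of 151.4 and 98.5. It was the strongest within 10 kb, where weaker peaks stood at 1499, 1709 and 2665 bp with signals of 9.27, 27.0 and 25.7. The signal of 9.27, with 3.24 and 2.94 in the replicates, was the lowest of the 58 peaks, and that peak was absent from the authors' conservative list. Another strong peak lay 13345 bp upstream, near Sec14l5, with a signal of 337 and replicate signals of 174 and 167. The promoter peak had no motif by the threshold used: its best score was 10.7, and the threshold, a score that 1% of random windows reached, was 11.8. The best partial match is in capitals in the sequence around its summit, which has 7 CpG. That match lies on the minus strand, while the sequence is printed on the plus strand.
Ppl promoter, chr16:5132662-5132782, plus strand: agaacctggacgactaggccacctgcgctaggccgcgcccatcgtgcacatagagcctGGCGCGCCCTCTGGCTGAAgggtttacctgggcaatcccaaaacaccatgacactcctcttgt

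Pkp1 encodes plakophilin 1, an armadillo protein of the desmosomal plaque most abundant in the upper layers of stratified epithelia (chromosome 1, 135871395 to 135919207, minus strand). Strong peaks stood inside it and on both sides. All 10 within 50 kb had the motif, 9 of the 10 were in the upper 50% of the optimal list, and their signals ran from 39.7 to 486 with a median of 317. All 10 were in the conservative list and among the 74283 strongest peaks of both replicates. The strongest (135865575 to 135865888) lay 5662 bp past the last base of the gene, with a signal of 486 and replicate signals of 275 and 214. A site in an intron (135882777 to 135883073) had a signal of 380, with 218 and 164 in the replicates. It lay 4638 bp upstream of a short retained-intron transcript that starts inside the gene, at 135878275. Without such inner starts Pkp1 had no optimal peak within 10 kb. The site past the end of Pkp1 and all peaks beyond it were within 50 kb of that inner start only. Those beyond it stood in or beside Tnnt2 and Lad1, so the values for the 10 peaks include sites nearer to neighbouring genes. Upstream of the gene a pair of sites at 25772 and 26668 bp had signals of 385 and 354 and lay on opposite strands. The optimal list had no peak at the main start, while the conservative list had one 169 bp upstream, with a signal of 19.3 in the pooled relaxed list and 12.0 and 7.36 in the replicates. The site past the end of Pkp1 and the nearer upstream site face each other across the gene, with the intronic site between them.
Pkp1 end, chr1:135865705-135865745, plus strand: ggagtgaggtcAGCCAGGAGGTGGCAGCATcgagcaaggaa
Pkp1 intron, chr1:135882896-135882936, minus strand: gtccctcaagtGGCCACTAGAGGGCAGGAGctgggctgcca
Pkp1 upstream, chr1:135944960-135945000, minus strand: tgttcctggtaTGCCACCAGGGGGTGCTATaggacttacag

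Dsp encodes desmoplakin, the link from the plaque to keratin, and had 8 optimal peaks within 50 kb (chromosome 13, 38151294 to 38198577, plus strand). The Dsp signals ran from 14.7 to 94.0 with a median of 34.3, below the Pkp1 median of 317, although the ranges overlapped. Of the 8, 1 was in the upper 50% of the optimal list, and 4 were among the 74283 strongest peaks of both replicates. The single peak within 10 kb lay 1587 bp past a start, in an intron, with a signal of 49.0, replicate signals of 29.5 and 19.1, and no motif. A relaxed peak 195 bp past the start had a signal of 30.5, above the weakest optimal peaks, but its replicate signals were 23.3 and 2.64 and it was not in the optimal list. The strongest of the 8 lay in Snrnp48, a spliceosome gene, with a signal of 94.0 and replicate signals of 55.3 and 38.0. It stood 42189 bp downstream of an inner start of Dsp at 38178367, that of a processed transcript. The peaks in or beside Snrnp48 were within 50 kb of that inner start only, and not of the main starts.

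A motif core was shared by weak peaks of several of these genes. Positions 3 to 13 of the motif read CCAGAAGAGGG in 6 of the motif peaks on chromosomes 1, 11, 13, 16 and 19, more often than any other core, and in 1 more near Dsg3 and Dsg2. These 7 peaks, 18.4% of the 38 member peaks with the motif, all lay mostly in sequence that the reference marks as repeats, against 2 of the other 31. Their signals ran from 25.6 to 99.6 with a median of 61.4, against a median of 281 for the others. Among all optimal peaks with the motif the core was as common, at 18.1%, with 83.5% in repeats against 10.4% of the rest and a median signal of 51.5 against 155. The core was picked after the sequences were seen, and the repeat family was not identified. Copies near Dsp, Ppl, Evpl and Ovol1 show the shared letters and how the flanks vary.
Dsp intron, chr13:38190165-38190205, plus strand: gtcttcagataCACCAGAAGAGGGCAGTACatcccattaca
Dsp downstream, chr13:38220506-38220546, plus strand: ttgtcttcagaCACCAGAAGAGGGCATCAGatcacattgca
Ppl intron, chr16:5119305-5119345, plus strand: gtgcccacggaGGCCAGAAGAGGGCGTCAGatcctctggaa
Evpl upstream, chr11:116267825-116267865, minus strand: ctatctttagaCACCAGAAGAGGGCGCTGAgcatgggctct
Ovol1 downstream, chr19:5516554-5516594, plus strand: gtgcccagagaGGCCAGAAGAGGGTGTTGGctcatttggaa

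**Figure D3:**
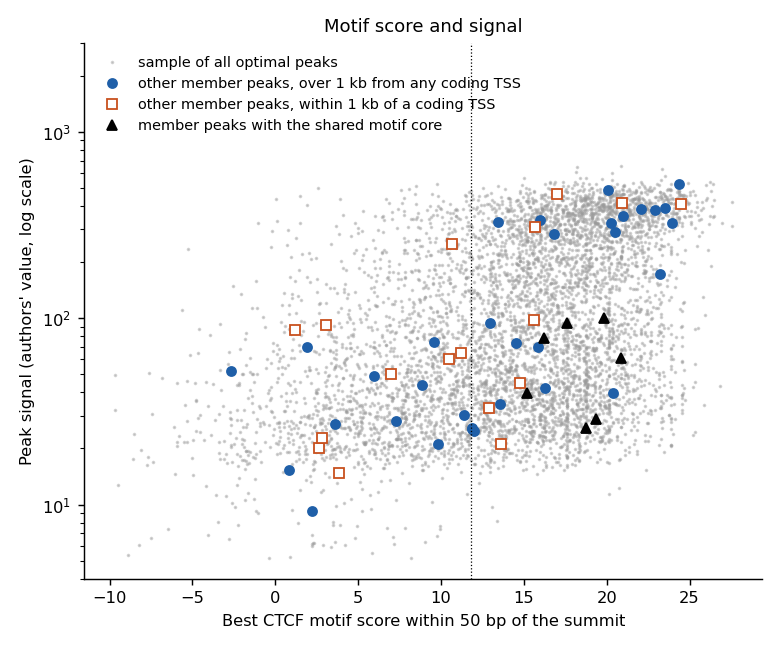
Best CTCF motif score within 50 bp of the summit on the x axis and the authors' signal on a log y axis, for the 58 member peaks over a grey sample of 6000 optimal peaks. The dotted line is the threshold of 11.8, squares lie within 1 kb of a coding TSS, and triangles carry the shared motif core. Triangles have scores above the threshold and signals no higher than 99.6.

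The 4 desmosomal cadherin genes stand in a cluster of 9 on chromosome 18 that holds no other coding gene (19960930 to 20604521, 643592 bp). Desmocollins run on the minus strand at one end (Dsc3, Dsc2, Dsc1) and desmogleins on the plus strand at the other (Dsg1c, Dsg1a, Dsg1b, Dsg4, Dsg3, Dsg2). Dsg3 and Dsc3 are known from the basal layers of stratified epithelia, and Dsg2 and Dsc2 also from simple epithelia. The cluster held 18 optimal peaks, or 27.97 per Mb, against 25.8 per Mb on chromosome 18 and 29.0 per Mb over all chromosomes but Y. Most were weak, with signals from 15.01 to 322 and a median of 48.3, against medians of 72.9 on chromosome 18 and 76.6 over all optimal peaks. Only 3 of the 18 (16.7%) were in the upper 50% of the optimal list, against 48.6% on chromosome 18. The motif was present in 9 of the 18, against 65.3% of the peaks of chromosome 18. It lay on the plus strand in 7 and on the minus strand in 2, against 793 and 681 peaks of chromosome 18. In the pooled relaxed list the cluster had 85.5 peaks per Mb, against 110 on the chromosome.

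Dsg2 held the one strong site of the cluster. It lay in an intron, 8707 bp past a start (20566835 to 20567080), with a signal of 322, replicate signals of 181 and 142, and the motif on the minus strand. A weaker intronic peak 40090 bp past the start had a signal of 73.3, with 42.3 and 30.9 in the replicates. At the Dsg2 starts there was no optimal peak within 1 kb, and 1 relaxed peak had a signal of 6.06. Dsg3 had 4 peaks within 50 kb and none within 10 kb. The nearest lay 18158 bp into the gene, with a signal of 25.6 and replicate signals of 16.5 and 8.92, and also counted among the 3 peaks within 50 kb of Dsg2. The strongest lay 34335 bp upstream, with a signal of 94.3 and replicate signals of 49.9 and 41.3.

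Dsc3 and Dsc2 each had a peak at the start, alike in size and both without the motif. At Dsc3 (20002031 to 20002326) the summit lay 97 bp from a start, with a signal of 60.4 and replicate signals of 42.6 and 18.6. At Dsc2 (20059549 to 20059844) it lay 143 bp upstream, with a signal of 65.3 and replicate signals of 45.9 and 19.5. Their best motif scores were 10.5 and 11.2, just under the threshold. Both starts are richer in CpG than those of Dsg3, with 31 to 37 within 500 bp of the Dsc3 starts and 34 to 41 at the clustered Dsc2 starts. Over coding genes, 9.14% of those with 10 or fewer CpG at the start had an optimal peak within 1 kb, against 56.1% of the others. Among the 10 genes here, starts rich in CpG were found with and without such a peak, and the part of CpG number was not tested. The Dsg2 starts had 65 to 69, the outer Pkp1 starts 72 to 74 and the outer Dsp starts 92 and 93. None of these had an optimal peak within 1 kb, while the Ppl starts, with 67, had one. Within 10 kb Dsc3 had 1 more peak, with a signal of 15.3 at 7744 bp and replicate signals of 7.73 and 6.93, which was not in the conservative list. No peak within 50 kb of a Dsc3 start had the motif. Of the other cluster genes, within 10 kb, Dsg4 had 2 peaks, the stronger with a signal of 49.3, and Dsg1a, Dsg1b, Dsg1c and Dsc1 had none.

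Strong peaks with the motif stood outside the cluster at either end. On the Dsc3 side a peak 21374 bp outside had a signal of 240, with 123 and 118 in the replicates, and the motif on the minus strand. On the Dsg2 side a peak 35606 bp outside, toward the transthyretin gene Ttr, had a signal of 413, with 219 and 195 in the replicates, and the motif on the plus strand. Both motifs thus pointed away from the cluster. Between them, the strongest peak after the one in the Dsg2 intron had a signal of 115.

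**Figure D4:**
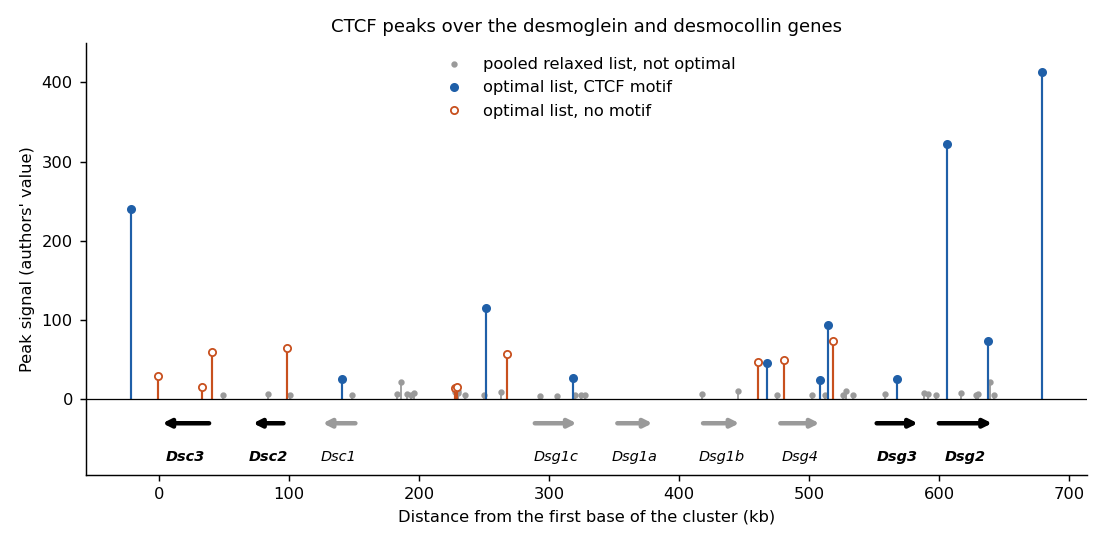
CTCF peaks over the desmocollin and desmoglein genes, with distance from the first base of the cluster in kb on the x axis and the authors' signal on the y axis. Black arrows are Dsc3, Dsc2, Dsg3 and Dsg2 in the direction of transcription, grey arrows the other 5 genes, and grey points pooled relaxed peaks that are not optimal. The strong peaks are those outside either end, with signals of 240 and 413, and the one in Dsg2, with a signal of 322.

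Over all 58 peaks near the 10 genes, the motif was found in 38 (65.5%, exact 95% interval 51.9 to 77.5), against 69.3% of optimal peaks outside chromosome 2. The motif share was 23 of 26 in the upper 50% by signal and 15 of 32 in the lower 50%, against 83.5% and 55.1% of all optimal peaks outside chromosome 2. Peaks with the motif had a median signal of 97.7, against 46.3 for those without. The signals of the 58 peaks ran from 9.27 to 526 with a median of 69.9, against 76.6 over all optimal peaks. These intervals cover counting error only, and peaks near a gene are not replicates of each other.

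Many of the 58 peaks lay at starts of neighbouring genes. Within 1 kb of any coding TSS lay 18 of the 58 (31.0%, interval 19.5 to 44.5), against 18.2% of all optimal peaks, while only 3 of these stood at a start of the 10 genes. The 58 were taken within 50 kb of a coding TSS and the background was not, so a higher share follows from the choice and no excess is read. Among the 18, 9 had the motif (50%, interval 26.0 to 74.0), against 45.7% of all optimal peaks within 1 kb of a coding TSS outside chromosome 2. By position, 25 of the 58 were in introns, 22 between genes, 5 in coding exons, 4 in untranslated exons and 2 in noncoding exons.

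The nearest motif peaks on either side of the gene body faced each other in 5 of the 10 genes (Ovol1, Ppl, Dsp, Pkp1 and Dsg3), against 27.9% of the coding genes with such a peak on both sides. The Ppl pair rests on a motif score of 11.85, against the threshold of 11.81, and the Dsp pair on a peak with no partner in replicate 2 that was absent from the conservative list. The 5 pairs differed in strength, given here for the left site and then the right one. At Ovol1 they had signals of 526 and 465 and at Pkp1 486 and 385. At Ppl they had 186 and 25.7, at Dsp 399 and 21.2, and at Dsg3 94.3 and 322. At Dsc3 and Dsc2, which share their flanking peaks, the motifs faced away, and at Trp63, Evpl and Dsg2 both lay on the same strand. Contacts between the sites were not measured.

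The replicates held most of these peaks in common. The optimal list was filtered by the authors for peaks of similar rank in the replicates, so such sharing is largely built in. A summit within 100 bp was found among the strongest peaks of both replicates for 48 of the 58 (82.8%, interval 70.6 to 91.4), against 83.2% of all optimal peaks, and 52 were in the conservative list. The ratio of replicate 1 to replicate 2 signal had a median of 1.48 over the 57 peaks found in both relaxed lists, against 1.33 over all optimal peaks. Since the lists are not scaled to each other, only differences in this ratio between kinds of peak can be read. Peaks within 1 kb of a coding TSS without the motif had a median ratio of 1.69 (9 peaks), against 1.33 for motif peaks farther away (29 peaks). Between them were start peaks with the motif, at 1.49 (8 peaks), and farther peaks without it, at 1.54 (11 peaks). Over all optimal peaks the 4 kinds, in the same order, had medians of 1.62, 1.30, 1.44 and 1.38. The ratio was 2.29 at the Dsc3 start, 2.35 at the Dsc2 start and 1.54 at the Ppl start. With 1 library a replicate, these differences could not be tested.

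**Figure D5:**
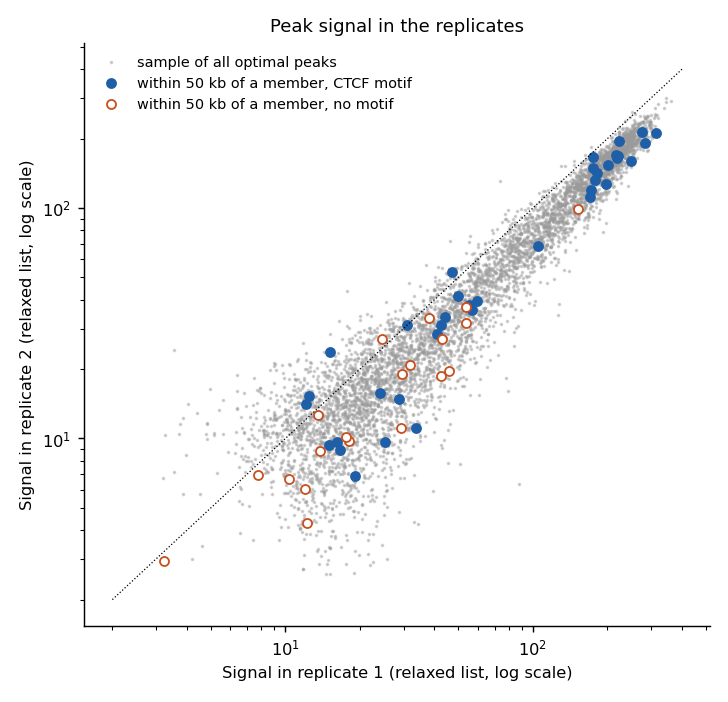
Signal of each optimal peak in the relaxed list of replicate 1 (x axis) and replicate 2 (y axis), both on log scales, for the 57 member peaks found in both and a grey sample of optimal peaks. Blue points have the motif, open points have none, and the dotted line marks equal values, which have no meaning of their own because the lists are not scaled to each other. The member peaks lie within the spread of the grey points.

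With all relaxed peaks counted, 9 of the 10 genes had a pooled peak within 1 kb of a TSS, against 72.6% of coding genes, the exception being Dsg3, and all 10 had one within 10 kb, against 86.0%. Near the 10 genes 177 peaks of the pooled relaxed list lay more than 300 bp from any optimal peak. The conservative list held 6 of them. Of the 177, 41 (23.2%) were found in both replicates, against 22.2% of all such peaks, and 26 (14.7%) had the motif, against 14.9%. Their median signal was 6.83, against 6.80. Those with the motif and in both replicates numbered 14, of which 5 were near Pkp1 and 3 near Dsp, and none was near Trp63.

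Other genes of squamous epithelium were counted in the same way. An optimal peak within 1 kb was found for 3 of 5 further desmosome genes, 8 of 11 further regulators and 4 of 7 hemidesmosome or envelope genes, against the 45.6% of coding genes given above. Within 10 kb, 4 of the 5 desmosome genes had one, led by Pkp3 (signal 406), Jup, which encodes plakoglobin (375), and Perp (186). Pkp2 had its nearest at 11121 bp. All 11 regulators had one, with the highest signals at Sfn (428), Sox2 (357) and Klf4 (291). Of the 7 hemidesmosome or envelope genes 6 had one, led by Plec (481), Tgm1 (454) and Dst (393), and Tgm3 had its nearest at 35774 bp. The background for the 10 kb counts is the 72.3% of coding genes.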

How the data were processed

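CTCF ChIP-seq peaks of newborn mouse stomach were analysed in mm10. The authors deposited 5 peak lists: relaxed peaks of each replicate and of both pooled, 300000 each, and optimal and conservative lists that passed IDR, which keeps peaks of similar rank in the replicates, per the labels. The aligner, peak caller and cutoff were not given in the sources used here. Deposited signal ranks peaks within a list. The deposited −log10 q-value ran from 0.270 to 5.12 in the optimal list. The deposited score was 0 in relaxed lists and 537 to 1000 in the optimal list. Read numbers were not used, so depth is unknown.

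Summits were measured from the TSS of every transcript in GENCODE M21. Peaks on chromosomes were kept (74283 of 74293 optimal). A replicate partner was a summit within 100 bp among as many strongest peaks as the optimal list holds; for relaxed peaks, anywhere in that replicate's list. A motif matrix of 19 positions came from the 1000 strongest optimal peaks of chromosome 2, which has no member, of which 989 aligned; sequence came from RefSeq GRCm38.p6, the same assembly. Windows reaching 50 bp from the summit to either side were scored. The strand is that on which the consensus has more G than C. Distances, partners and motif calls were checked on simulated data. With 1 group there was no test between conditions. Intervals are exact Clopper-Pearson. Named were all 10 genes with their nearest and strongest peaks and those within 10 kb, and the leading 3 genes of each further list. The members and lists were chosen with earlier results of these data known. Python 3.11.15, numpy 2.4.6, pandas 2.3.3, scipy 1.17.1 and matplotlib 3.10.9 were used.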

Additional observations from a re-analysis of the deposited data

How the results depend on the processing

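With only the strongest 50% of optimal peaks, 1 of the 10 genes (Ppl) had a peak within 1 kb, against 23.9% of coding genes, 4 (Ovol1, Ppl, Pkp1 and Dsg2) had one within 10 kb, against 55.5%, and the cadherin cluster had 4.66 peaks per Mb. Against all relaxed peaks of the replicates, 98.3% of the member peaks had a partner in both. At a motif threshold met by 0.1% of random windows, 29.3% of the member peaks had the motif, against 27.8% of all optimal peaks outside chromosome 2. With windows reaching 100 bp from the summit to either side, 53.4% had it, against 57.2%. The threshold for these wider windows, met by 1% of random windows of that width, was 14.4. Without replicate 1 or replicate 2, the count within 1 kb was 3 to 4 genes, that within 10 kb 7 to 8, that within 50 kb 10 in both cases, and the cluster had 23.3 to 26.4 peaks per Mb. Dsp entered the 1 kb count without replicate 2, and Trp63 the 10 kb count without replicate 1. Counting only the start of each gene left 6 genes within 10 kb, without Pkp1. The conservative list gave 4 genes within 1 kb, adding Pkp1. The strongest peaks of the pooled relaxed list, as many as the optimal list holds, gave 4 within 1 kb, adding Dsp, and 10 within 50 kb, adding Trp63. No paired analysis was possible because there was 1 group and no test. Sequencing depth is unknown, so a lack of peaks is a lack of called peaks.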
